A study of Mus musculus with 10 samples.

Results

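Plastins are actin-bundling proteins that cross-link filaments into tight parallel bundles, each through a pair of actin-binding domains made of calponin homology repeats, under the control of calcium-binding EF hands. The human family has LCP1, which encodes L-plastin and is a hallmark of leukocytes, PLS3, which encodes T-plastin and is made in most solid tissues, and PLS1, which encodes I-plastin of intestinal and renal microvilli and of inner ear stereocilia. L-plastin is also made by many epithelial cancer cell lines, and its promoter has been described as steroid-responsive in prostate cancer cells.

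The 3 plastin genes were taken by name from a table of 58735 human genes counted in 10 tumour libraries, and all 3 passed the filter on low counts that left 16913 genes for testing. LCP1 was chosen by its measured level, its excess over other leukocyte genes and its difference between the groups, so those values are given below as a description without a test. PLS1 and PLS3 were taken with it by family name, whatever their values.

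The tumours were subcutaneous xenografts of LNCaP, a human prostate cancer line that responds to androgen, in NOD.Cg-Prkdcscid Il2rgtm1Wjl/SzJ mice, which lack T, B and NK cells of their own and keep mouse myeloid cells. The mice of both groups received 4 weekly intraperitoneal injections, 100 µl each, of sipuleucel-T (sip-T, a product of cultured human blood cells), and tumours were taken 7 days after the last. Control sip-T went to the 5 control tumours. The 5 IL-15 tumours had sip-T and 1 µg of recombinant human IL-15 (rhIL-15) given subcutaneously with it. IL-15 is a growth and survival factor of T and NK lymphocytes. Control mice had PBS as the sham dose. The study's text also speaks of sip-T that was itself treated with IL-15, so treatment of the cells and injection of the cytokine cannot be told apart. The labels state neither the number of blood donors nor that each library is a separate mouse, so a p-value here speaks only of the spread among the 10 libraries, which may be technical. Total counts ranged from 13560224 to 19324056 reads, and a floor of 3 counts stood at 0.155 to 0.221 CPM (counts scaled to library size) before TMM scaling, which covers counting error only. The defining genes of the labelled cell type were present: KLK3, KLK2, KRT8 and EPCAM were detected in all 10 libraries, with KLK3, the gene of prostate-specific antigen, at 653 to 1447 FPKM.

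Levels of different genes were compared per transcript length, with the FPKM values (fragments per kilobase, scaled to depth) that the authors deposited. LCP1 (ENSG00000136167, chromosome 13, 46125920 to 46211871 on hg38, minus strand) was the most abundant plastin in 9 of 10 tumours. Its level in the control tumours 1 to 5 was 87.4, 11.6, 51.4, 54.8 and 15.6 FPKM. In the IL-15 tumours 1 to 5 it was 89.1, 52.9, 118.5, 137.9 and 60.1 FPKM. Control tumours 2 and 5 were thus low and IL-15 tumours 3 and 4 high, and LCP1 ranked between position 151 and position 3792 among 19951 protein-coding genes, depending on the tumour.

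PLS3 (ENSG00000102024, chromosome X, 115561174 to 115650861, plus strand) came next. Its level was 4.36, 12.6, 15.1, 13.3 and 7.95 FPKM in control tumours 1 to 5. It was 6.78, 7.43, 5.89, 9.09 and 8.82 FPKM in IL-15 tumours 1 to 5. PLS3 exceeded LCP1 in control tumour 2 alone, where LCP1 was at its lowest. PLS1 (ENSG00000120756, chromosome 3, 142596387 to 142713664, plus strand) was the least abundant in every tumour, at 1.55 to 4.04 FPKM in control and 2.35 to 4.26 FPKM in IL-15 tumours. PLS3 exceeded PLS1 in 10 of 10 tumours, by 1.75 to 7.97 times.

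**Figure D1:**
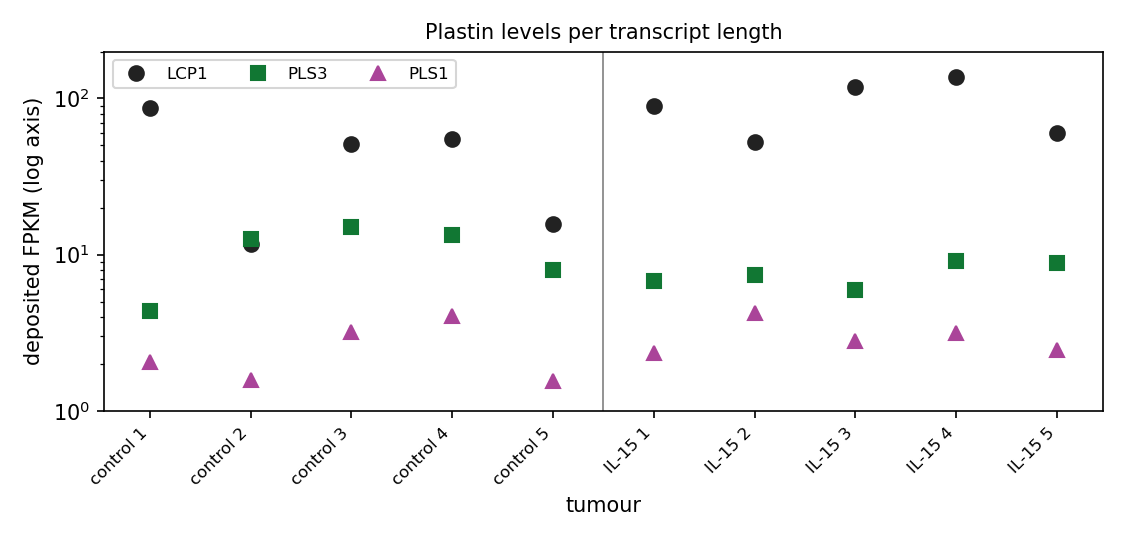
Deposited FPKM (log axis) of LCP1, PLS3 and PLS1 in each of 10 tumours, control on the left of the grey line and IL-15 on the right. LCP1 lies above PLS3 in 9 tumours and at about its level in control tumour 2 (11.6 against 12.6 FPKM), and PLS1 is lowest in all 10.

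The share of LCP1 in the plastin transcripts varied between tumours. LCP1 made up 93.2, 45.1, 73.8, 75.9 and 62.2% of the summed plastin FPKM in control tumours 1 to 5 and 90.7, 81.9, 93.2, 91.8 and 84.2% in IL-15 tumours 1 to 5. The control tumours spanned a wider range of this share than the IL-15 tumours, and the groups overlapped. Among other bundling and cross-linking genes, the alpha-actinin gene ACTN4 was in the same range as LCP1, at 44.5 to 80.0 FPKM. ACTN1, its close relative, was at 7.67 to 13.9 FPKM, and FSCN1, the gene of the filopodial bundler fascin, at 4.91 to 10.9 FPKM, both near PLS3. VIL1, the gene of the microvillar bundler villin that works beside I-plastin in the gut, did not exceed 0.119 FPKM. ACTB, which encodes the filament protein itself, was at 499 to 804 FPKM.

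Levels of 1 gene between tumours are given below as CPM after TMM scaling, which corrects for library composition. LCP1 measured 492, 64.4, 281, 300.5 and 87.2 CPM in control tumours 1 to 5. It measured 500.4, 294, 677, 772 and 332 CPM in IL-15 tumours 1 to 5. All 5 IL-15 tumours lay above the control median of 281 CPM and 3 of them above the highest control tumour, and the groups overlapped. The means were 245 ± 175 and 515 ± 209 CPM (SD, n = 5 each), with a log2 fold change of 1.07 ± 0.54, or 2.10-fold. Here and below, ± after a log2 fold change is a standard error derived from edgeR's F statistic. It is the absolute log2 fold change over the square root of F. A fitted difference of at least 2-fold was found in 2.8% of the 16913 tested genes, and one toward IL-15 in 1.8%, and since LCP1 was chosen with this difference known, nothing is read from it. T cell transcripts also differed in level between the tumours, with sums of 6.44 to 26.6 CPM in control and 8.48 to 61.2 CPM in IL-15 tumours. With this sum as a covariate, the log2 fold change of LCP1 was 0.62, and leaving out single libraries gave 0.83 (without control tumour 2) to 1.49 (without control tumour 1).

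PLS3 had the opposite sign. It measured 19.9, 56.5, 66.7, 59.2 and 36 CPM in control tumours 1 to 5. In IL-15 tumours 1 to 5 it measured 30.8, 33.5, 27.3, 41.2 and 39.4 CPM. All 5 IL-15 tumours lay below the control median of 56.5 CPM but above control tumour 1, so the groups overlapped. The log2 fold change was -0.47 ± 0.27 and did not pass edgeR's quasi-likelihood test (adjusted p = 0.779 over all genes).

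PLS1 had the same sign as LCP1. It measured 12.1, 9.15, 18.4, 23.2 and 9.05 CPM in control tumours 1 to 5 and 13.8, 24.8, 16.8, 18.4 and 14.1 CPM in IL-15 tumours 1 to 5. The highest value was that of IL-15 tumour 2 and the lowest that of control tumour 5. Its log2 fold change of 0.29 ± 0.28 did not pass edgeR (adjusted p = 0.858). None of the 3 plastins had groups that did not overlap, against 0.355% of tested genes with every IL-15 tumour above every control tumour and 0.319% with every one below.

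**Figure D2:**
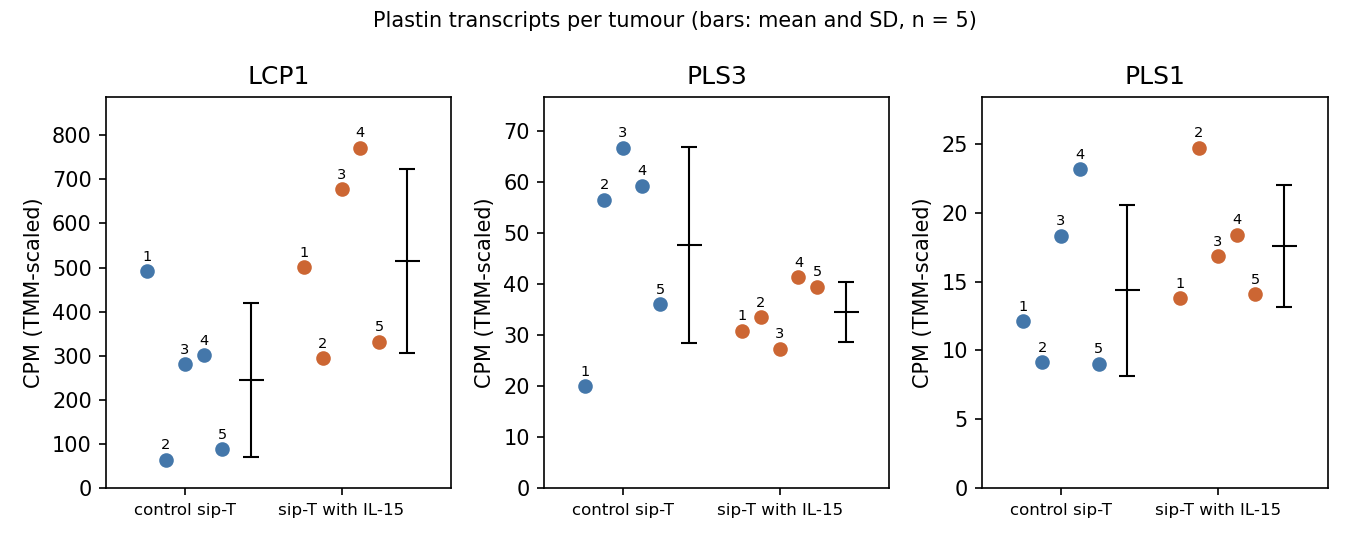
TMM-scaled CPM of LCP1, PLS3 and PLS1 by group, with a numbered point for each tumour and bars for the mean and SD of 5 tumours. The groups overlap for each gene, with LCP1 at 64.4 to 492 CPM in control and 294 to 772 CPM in IL-15 tumours.

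Over the 16913 genes past the filter, edgeR called 0% (0 genes at an adjusted p under 0.05 and 1092 at an unadjusted p under 0.05), and limma called 0 by voom (1095 unadjusted) and 0 on log2 FPKM (1175 unadjusted). DESeq2 was run without that filter and gave an unadjusted p to 40857 genes, of which it called 15 (0.0367%, and 1683 or 4.12% unadjusted). Its own default filter on mean counts decides which of these genes get an adjusted p, and their number is not reported here. The plastins were among the more variable genes within groups. The SD of log2 CPM within groups was 0.99 for LCP1, larger than in 97.5% of the 10747 protein-coding genes with a mean of at least 5 CPM, whose median was 0.28. It was 0.54 for PLS3 and 0.49 for PLS1, larger than in 89.3 and 86.7% of these genes. For LCP1 the spread was 1.26 among control and 0.61 among IL-15 tumours, and the highest tumour exceeded the lowest 12 times, against 3.35 times for PLS3 and 2.74 times for PLS1.

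LCP1 was next set beside transcripts of the human leukocytes that sip-T could bring into a tumour. In bulk RNA, fewer cells of a type and less RNA per cell cannot be told apart. PTPRC encodes CD45, the surface phosphatase of nearly all leukocytes, and CD3E a chain of the T cell receptor complex. Control tumour 1 held 7714 LCP1 counts beside 2 PTPRC counts and 0 CD3E counts, a count of 0 that allows up to 3. Control tumour 4 held 5179 LCP1 counts beside 5 PTPRC and 0 CD3E counts. The richest tumour in leukocyte transcripts, IL-15 tumour 1, held 7286 LCP1 counts beside 77 PTPRC and 36 CD3E counts. LCP1 counts in control tumour 1 and IL-15 tumour 1 were thus alike, while PTPRC counts were 2 and 77. Other tumours went the other way. Control tumours 2 and 5, lowest in LCP1 (914 and 1224 counts), had 4 and 3 PTPRC counts. IL-15 tumours 3 and 4, highest in LCP1 (10897 and 10808 counts), had 55 and 38. PTPRC had 40 counts in control tumour 3, and 13 and 9 in IL-15 tumours 2 and 5.

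CORO1A and CD8A were set beside LCP1 in the same way. CORO1A encodes coronin 1A, an actin regulator of blood cells. It had 33, 19, 86, 9 and 14 counts in control tumours 1 to 5 and 208, 42, 104, 139 and 33 counts in IL-15 tumours 1 to 5. Control tumour 4, with 9 CORO1A counts, had more LCP1 (300.5 CPM) than control tumour 3, with 86 CORO1A counts (281 CPM). CD8A, the coreceptor gene of cytotoxic T cells, ranged from 0.142 to 2.79 FPKM, and LCP1 exceeded it per length by 29.8 to 346 times.

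**Figure D3:**
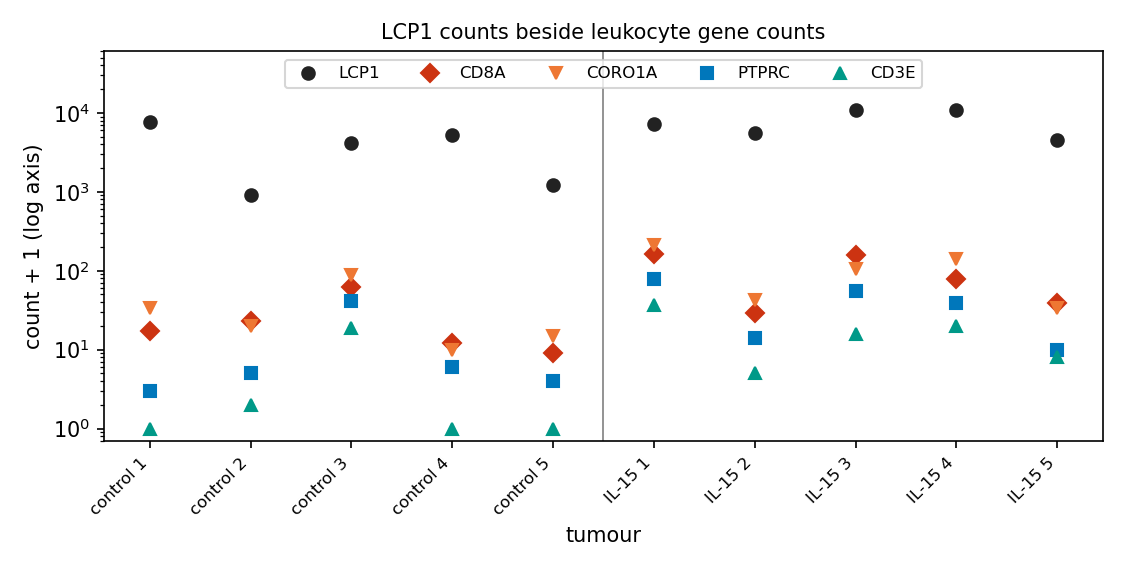
Counts plus 1 (log axis) of LCP1 and of the leukocyte genes CD8A, CORO1A, PTPRC and CD3E in each tumour, control on the left and IL-15 on the right of the grey line. LCP1 has 914 to 10897 counts. Control tumour 1 combines 7714 LCP1 counts with 2 PTPRC counts, and IL-15 tumour 3 combines 10897 with 55.

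The summed T cell list of 24 genes rests on more reads than CD3E alone. The sum was 8.10, 8.17, 26.6, 6.44 and 8.62 CPM in control tumours 1 to 5 and 61.2, 8.48, 38.1, 34.2 and 11.1 CPM in IL-15 tumours 1 to 5. Control tumours 1, 2, 4 and 5 and IL-15 tumours 2 and 5 were low, and the groups overlapped. In control tumours 1, 2 and 5 and IL-15 tumour 2 the sum stayed between 8.10 and 8.62 CPM, while LCP1 in these tumours was 492, 64.4, 87.2 and 294 CPM. LCP1 was 60.7 times the T cell sum in control tumour 1 and 7.88 times in control tumour 2, with all other tumours between these ratios.

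Over all 24 T cell genes, the mean CPM was higher with IL-15 for 24. The count filter left 5 of them for testing, none past edgeR's adjusted threshold. DESeq2, run without that filter, called 0 of the 24. It had 8 at an unadjusted p under 0.05, beside 4.12% of the genes it gave a p. Sparse genes can pass that filter through the group where they are high, so directions of leukocyte lists are given over all listed genes, as a description.

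The remaining marker lists were as follows. The 24 pan-leukocyte genes other than LCP1 summed to 25.0 to 54.8 CPM in control and 24.7 to 112 CPM in IL-15 tumours, with the mean higher with IL-15 for 23 and lower for 1. The 20 NK cell and cytotoxicity genes summed from 2.09 to 19.996 CPM in control and from 5.14 to 47.3 CPM in IL-15 tumours, with the mean higher for 16 and lower for 4. DESeq2 called 1 of them, the granzyme gene GZMA, beside 0.0367% of the genes it gave a p, and edgeR none. At an unadjusted p under 0.05, DESeq2 had 8 of these 20 and 11 of the 24 pan-leukocyte genes, beside 4.12%. It called 0 of the pan-leukocyte genes, and had 0 unadjusted in each of the lists given next. The 25 monocyte, macrophage and dendritic cell genes summed to 5.91 to 11.3 CPM in control and 6.16 to 10.3 CPM in IL-15 tumours, with the mean higher for 13 and lower for 10. Their adaptor gene TYROBP had 7 counts over the control and 0 over the IL-15 tumours, and the dendritic cell markers CD1C and CLEC9A had 0 counts in every library. The 16 B cell and plasma cell genes summed to 7.75 to 24.0 CPM in control and 9.68 to 17.7 CPM in IL-15 tumours, 67.7% of it from BANK1, with the mean higher for 5 and lower for 10, and the defining B cell marker MS4A1 had 0 counts throughout. The 21 fibroblast and vessel genes summed to 436 to 1446 CPM in control and 540 to 859 CPM in IL-15 tumours, 81.8% of it from FN1, with the mean higher for 7 and lower for 13, and the endothelial receptor gene KDR at 0. No source used here says whether reads of mouse host cells were removed, and mouse Lcp1 reads aligned to the human gene cannot be told apart from human ones in these counts.

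Relations across the 10 tumours were computed on log2 CPM for 18 pairs, with permutation p-values adjusted over all 18. The groups were pooled, so the group difference for which LCP1 was chosen enters its r. The permutation p-values of LCP1, here and below, are therefore a description and not a test. LCP1 had Pearson r = 0.59 and Spearman rho = 0.53 with the T cell sum (permutation p = 0.0790 and 0.123, adjusted 0.355 and 0.555). Without IL-15 tumours 1 and 3, which lie farthest from the median T cell sum, r was 0.47, and between deviations from the group means it was 0.37. With the pan-leukocyte sum without LCP1 the values were r = 0.58 and rho = 0.58 (permutation p = 0.0776 and 0.0870, adjusted 0.355 and 0.555), and r = 0.46 without IL-15 tumours 1 and 4. With the monocyte, macrophage and dendritic cell sum they were r = 0.39 and rho = 0.33 (permutation p = 0.273 and 0.350, adjusted 0.563 and 0.734). Without control tumour 3 and IL-15 tumour 3, r with this sum was 0.45. Between deviations from the group means, r was 0.61 with this sum and 0.45 with the pan-leukocyte sum. None of these relations passed after adjustment.

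Androgen-regulated transcripts were compared in the same way. The mean of 47 tested androgen response genes had r = 0.38 and rho = 0.30 with LCP1 (permutation p = 0.276 and 0.408, adjusted 0.563 and 0.734), and r = 0.11 without IL-15 tumours 2 and 4. KLK3 alone, an androgen-induced gene and the largest part of that list's summed CPM, had r = 0.68 and rho = 0.82 (permutation p = 0.0300 and 0.00588, adjusted 0.355 and 0.106). The r of KLK3 and LCP1 was 0.27 without control tumour 2 and IL-15 tumour 4, which lie farthest from the median KLK3. Control tumour 5 was among the tumours kept, and r depended on which tumours were left out. Within the groups, deviations from the group means had r = 0.63. Leaving out each tumour in turn gave r from 0.47 (without control tumour 2) to 0.88 (without control tumour 5). The adjusted permutation p was 0.00594 without control tumour 5 and 0.301 to 0.761 without any other tumour. Control tumour 5 combined high KLK3 (5437 CPM) with low LCP1 (87.2 CPM), so the value without it is no support for a relation.

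**Figure D4:**
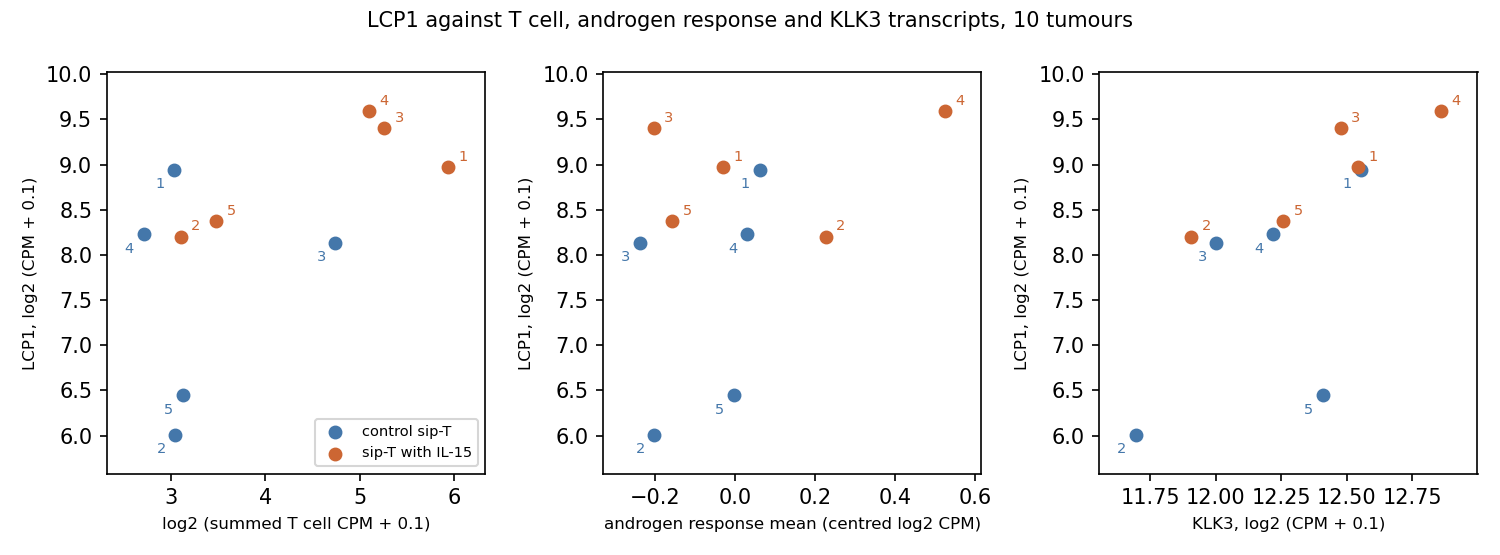
LCP1 (log2 of CPM plus 0.1) against the summed T cell list, the mean of androgen response genes and KLK3, with a point numbered by replicate for each of 10 tumours. Control tumours 1, 2 and 5 share a T cell sum of 8.10 to 8.62 CPM and differ in LCP1 from 64.4 to 492 CPM.

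Single androgen response genes did not share 1 direction with LCP1. As a description over 10 tumours, 28 of 47 had r above 0 and 19 below, with a median of 0.10. Over all tested genes, 50.1% were above 0, with a median of 0.00. Over genes with a mean of at least 5 CPM, it was 43.7%, with a median of -0.09. ELK4, an ETS family transcription factor gene, had the highest value (0.78), followed by the metalloreductase gene STEAP4 (0.70). The kallikrein gene KLK4 had the lowest (-0.75). FKBP5, a chaperone gene that androgen induces strongly, had r = -0.26, TMPRSS2 0.09 and KLK2 0.10. FKBP5 was highest in IL-15 tumour 4 (448 CPM) and control tumour 5 (437 CPM), where LCP1 was at 772 and 87.2 CPM. Between the groups, 27 of these 47 genes leaned toward IL-15 and 20 toward control (median log2 fold change 0.04). The members with the smallest p were KLK4 (-0.59 ± 0.16), the transcription factor gene ZBTB16 (-0.69 ± 0.22), ELK4 (0.40 ± 0.15) and STEAP4 (2.62 ± 1.197), none past edgeR's adjusted threshold.

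No relation of PLS3 or PLS1 passed either. For PLS3, r was -0.12 with the T cell sum, -0.21 with the pan-leukocyte sum and -0.53 with KLK3 (permutation p = 0.730, 0.556 and 0.113, adjusted 0.824, 0.824 and 0.406), with rho of -0.20, -0.22 and -0.53. For PLS1, r was 0.14, 0.12 and 0.01 with the same measures (permutation p = 0.702, 0.745 and 0.971, adjusted 0.824, 0.824 and 0.971), with rho of 0.01, 0.03 and -0.14. Without the tumours farthest from the median KLK3, control tumour 2 and IL-15 tumour 4, r with KLK3 was -0.69 for PLS1 and -0.65 for PLS3. With the monocyte, macrophage and dendritic cell sum, r was 0.36 for PLS1 and 0.10 for PLS3 (permutation p = 0.301 and 0.778, adjusted 0.563 and 0.824), with rho of 0.37 and 0.14. With the androgen response mean, r was 0.36 for PLS1 and -0.20 for PLS3 (permutation p = 0.313 and 0.581, adjusted 0.563 and 0.824), with rho of 0.31 and -0.22.

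Between the plastins, LCP1 and PLS1 had r = 0.58 and rho = 0.30 (permutation p = 0.0742 and 0.405, adjusted 0.355 and 0.734), and r = -0.39 without control tumours 2 and 5. LCP1 and PLS3 had r = -0.43 and rho = -0.47 (permutation p = 0.212 and 0.180, adjusted 0.563 and 0.646). PLS1 and PLS3 had r = 0.17 and rho = 0.27 (permutation p = 0.625 and 0.448, adjusted 0.824 and 0.734).

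The genes most like LCP1 were sought among 10746 protein-coding genes with a mean of at least 5 CPM, by Pearson r of log2 CPM over the 10 tumours, as a description. The highest was the sorting receptor gene SORL1 (r = 0.97, and 0.96 within groups). Its level was 16.5 ± 9.02 CPM in control tumours and 33.8 ± 11.3 CPM with IL-15 (SD, n = 5 each). The glycosyltransferase gene GALNT11 (0.93), the circadian transcription factor gene NPAS2 (0.93), the kinase gene NEK3 (0.93) and the mannosidase gene MAN1C1 (0.92) followed. The lowest were the translation initiation factor gene EIF3H (-0.94), GSTO1 (-0.93) and TPD52L1 (-0.93). None of these 8 genes is in the leukocyte or androgen response lists used here. The floor of 5 CPM kept all T cell, NK cell and monocyte list genes out of this search beforehand. Nothing is therefore read from the absence of leukocyte genes.

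The genes most like PLS1 were PPP1R1B (r = 0.97), which encodes the phosphatase inhibitor DARPP-32, the Rac exchange factor gene PREX1 (0.95) and the retinoblastoma gene RB1 (0.94). Those most like PLS3 were FAM104A (0.95), the GTPase-activating protein gene ARHGAP10 (0.89) and the receptor phosphatase gene PTPRG (0.89).

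Position was examined because NEK3 lies on chromosome 13, as does LCP1, a choice made after these values were seen. Of 71 tested genes with a mean of at least 5 CPM and a start within 10 Mb of the LCP1 start, 59 had r above 0 with LCP1 (83.1%, median r 0.30), beside 43.7% over all 11796 such genes (median -0.09). Over the whole of chromosome 13 it was 155 of 197 genes (78.7%, median 0.25). Around PLS1, 48 of 52 genes had r above 0 with PLS1 (92.3%, median 0.36), beside 62.4% over chromosome 3 (405 of 649) and 51.1% over all genes. Around PLS3 it was 24 of 40 (60.0%), beside 61.7% over chromosome X (238 of 386) and 59.3% over all genes. RB1 and SUCLA2, with r of 0.94 and 0.93 with PLS1, lie on chromosome 13 in the window around LCP1, not near PLS1. Their r with LCP1 was 0.48 and 0.51. Neighbouring genes share the tumours and the scaling, so these shares carry no test.

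**Figure D5:**
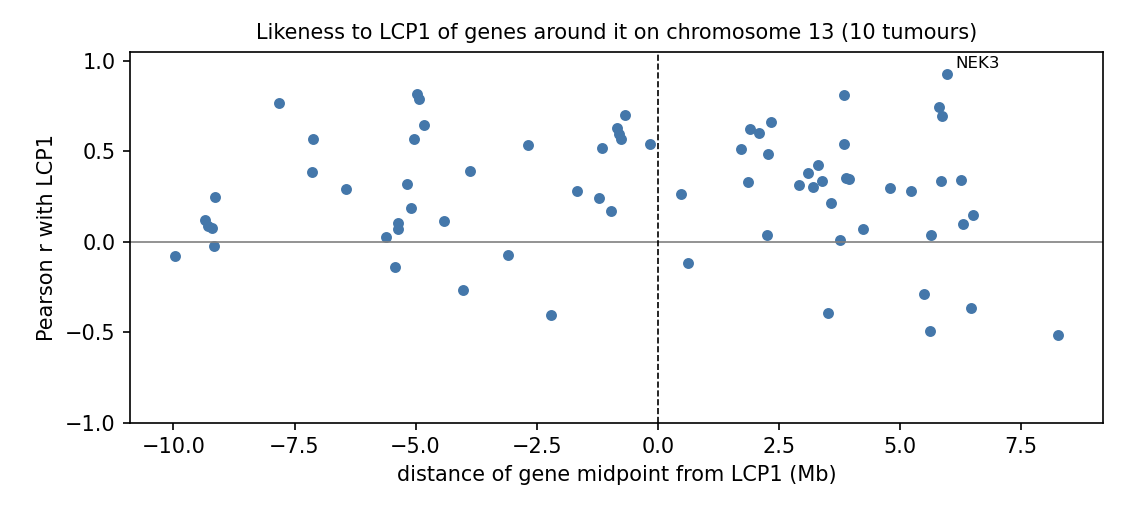
Pearson r with LCP1 of log2 CPM over 10 tumours, for 71 genes by the distance of their midpoint from LCP1 on chromosome 13 (Mb). Points lie above 0 for 59 genes, and NEK3 is highest at 0.93.

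Most direct neighbours of LCP1 had few counts. LRRC63 starts 72 bases beyond the LCP1 gene on the other strand and had 99 counts over all 10 libraries, CPB2 had 40 and RUBCNL 9. The zinc finger gene ZC3H13 was the tested one of these 4 neighbours. It was at 54.6 ± 13.1 CPM in control tumours and 60.2 ± 9.39 CPM with IL-15 (SD, n = 5 each), a log2 difference of 0.14 ± 0.17 (adjusted p by edgeR 0.895). Near PLS1, the checkpoint kinase gene ATR (-0.04 ± 0.14) and the exonuclease gene XRN1 (-0.07 ± 0.18) had log2 fold changes close to 0. TRPC1 and PCOLCE2, on the other side of PLS1, had 37 and 5 counts, and the 4 protein-coding neighbours of PLS3 had 0 to 31. Genes that overlap the plastins took almost no reads, with 7 counts for PLS3-AS1 and 1 each for PLS1-AS1, RN7SKP25 and RN7SL288P. No source used here gives the strandedness of the counting, so reads from the antisense partners could be counted with PLS1 or PLS3. The plastin coding sequences resemble each other, and how reads that fit more than 1 of them were counted is likewise not stated.

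Other actin genes were described by lists. Of 37 bundling and cross-linking genes, 29 were tested, 11 leaning toward IL-15 and 18 toward control (median log2 fold change -0.03, beside -0.01 over all genes tested). At an unadjusted p under 0.05, edgeR had 1 higher and 2 lower, beside 6.46% of all tested genes in either direction. EdgeR and DESeq2 called none after adjustment. DESeq2 had 4 of all 37 unadjusted, beside 4.12% of the genes it gave a p, sparse genes included. The members with the smallest p were the cortactin gene CTTN (-0.52 ± 0.19), ACTN4 (-0.37 ± 0.15) and the spectrin gene SPTBN1 (1.29 ± 0.58). As a description, the members most like LCP1 over the tumours were ACTN1 (r = 0.85) and the actin-binding caldesmon gene CALD1 (0.80), and the least alike was TAGLN2 (-0.62).

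Of 40 genes of actin filament turnover, 38 were tested, 14 with fold changes above 0 and 24 below (median -0.06). The smallest p belonged to the capping protein gene CAPG (0.78 ± 0.33), the Ena/VASP gene EVL (0.42 ± 0.19), the cofilin gene CFL1 (-0.35 ± 0.16) and the tropomyosin gene TPM3 (-0.29 ± 0.17). Of the microvillus and brush border genes, 18 were tested, 9 above and 9 below 0 (median -0.004). Among them the membrane-linker gene RDX (-0.59 ± 0.19) and EPS8L2 (-0.69 ± 0.26) had the smallest p. Of 23 integrin and adhesion genes, 21 were tested, 9 above and 12 below 0 (median -0.08), with the collagen receptor gene ITGA2 (-1.24 ± 0.44) first. EdgeR and DESeq2 called no member of these 3 lists after adjustment. At an unadjusted p under 0.05, edgeR had 3 of 38, 2 of 18 and 1 of 21 members, beside 6.46% over all tested genes. DESeq2, run without the count filter, had 3 of 40, 2 of 22 and 2 of 23. Its share over all genes with a p was 4.12%, sparse genes included, so the baselines are unlike.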

How the data were processed

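Whole-tumour RNA was sequenced by the submitters on an Illumina platform. Per the submitters' processing notes, the build was hg38 and the tools included HISAT2 2.0.5 and fastp, DESeq2 1.20.0, GATK 4.1.1.0 and featureCounts 1.5.0-p3, with no roles stated. One deposited table gives unnormalized counts for each gene in each library. A second deposited table gives FPKM by the authors, whose scaling total is not stated. A table of group means by the authors was not used. Groups and replicate numbers came from the sample titles.

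Counts were filtered with filterByExpr (minimum count 10), scaled by TMM and tested with edgeR 4.0.16 (robust quasi-likelihood fit, R 4.3.3) over all genes at a Benjamini-Hochberg adjusted p of 0.05. CPM used all counts and the TMM factors, and logs a pseudocount of 0.1 CPM. Relations used 100000 permutations, two-sided. Alternatives were other scalings and filters, DESeq2 1.42.0, limma 3.58.1 (voom, and log2 of FPKM plus 0.1), a replicate block, a T cell covariate, and each library left out. All 45 pairs of libraries differed beyond counting noise (chi-square over its degrees of freedom 20.4 to 90.3). The scripts were tested on simulated data. Genes named were the plastins, the genes most and least like them, the 2 protein-coding neighbours per side and overlapping genes, list members with the smallest p, up to 4 a list, and a fixed set of marker genes. Genes at the ends of a list by r, markers at 0 and genes that dominate a sum were named after their values were seen. Some genes that this rule names are not reported here. The members and lists were chosen with earlier results of these data known.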

Additional observations from a re-analysis of the deposited data

Results flagged for a closer look

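Of 32 groups of 5 values checked (the 3 plastins, 12 list sums and the LCP1 share in each treatment group), 3 held a value far from the other 4, and chance gives about 1 in 20. Control tumour 3 stood apart in the T cell sum (26.6 CPM) and in the NK cell and cytotoxicity sum (19.996 CPM). Its LCP1, at 281 CPM, was the control median. IL-15 tumour 4 stood apart in the summed androgen response genes (25658 CPM) and also had the highest LCP1 of the 10 tumours (772 CPM). No plastin value stood apart from its group by this measure.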

How the results depend on the processing

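The signs of the LCP1, PLS3 and PLS1 differences were the same in all 19 alternatives, with log2 fold changes of 0.62 to 1.49, -0.67 to -0.32 and 0.14 to 0.53, and neither PLS3 nor PLS1 passed in any of them (adjusted p from 0.432 and 0.568). Leaving out each library gave 0.83 to 1.49 for LCP1, -0.67 to -0.32 for PLS3 and 0.14 to 0.53 for PLS1. The number of genes called was 1 without the count filter (40934 genes) and 15 with DESeq2, where tool and filter changed together (40857 genes with an unadjusted p). It was 0 in the other 16 of 18 alternatives run, and was not counted with the T cell covariate. Deviations of same-numbered libraries of the 2 groups from their group means had correlations of 0.26, 0.01, -0.17, -0.22 and -0.08 over all tested genes. The labels state no pairing, and these correlations cannot exclude a shared blood donor or processing day. With the replicate block the log2 fold changes were 1.37 for LCP1, 0.35 for PLS1 and -0.37 for PLS3, with 0 genes called, and only replicate 1 correlated best with its own number.

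Across settings, the r of LCP1 with the monocyte, macrophage and dendritic cell sum was -0.14 on deposited FPKM, and that of PLS3 with the same sum was -0.025 with library size CPM, where the cause was not tested. With each library left out, r ranged for LCP1 from 0.52 to 0.69 (T cell sum), 0.50 to 0.64 (pan-leukocyte sum), 0.12 to 0.54 (monocyte sum), 0.11 to 0.55 (androgen mean), 0.47 to 0.88 (KLK3), 0.38 to 0.68 (PLS1) and -0.55 to -0.28 (PLS3). For PLS1 it ranged from -0.0023 to 0.35 (T cell sum), -0.078 to 0.30 (pan-leukocyte sum) and -0.42 to 0.26 (KLK3), and for PLS3 from -0.39 to 0.030 (T cell sum) and -0.37 to 0.32 (monocyte sum). Low leukocyte counts limit the T cell, pan-leukocyte and monocyte sums, the last of which rested on 84 to 166 counts per tumour. The depth of 914 to 10897 counts does not limit LCP1.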

Other observations

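Prostate luminal genes differed in how they varied beside LCP1. As a description over 10 tumours, 12 of 16 tested members had r above 0 with LCP1 and 4 below, beside 50.1% above 0 over all tested genes. ACPP, the gene of prostatic acid phosphatase, had the highest value (0.77), and the epithelial adhesion gene EPCAM had 0.65. The surface antigen gene FOLH1 had -0.68 and KLK4 -0.75. For PLS3 the split was 8 above and 8 below, beside 50.6% above 0 over all tested genes, FOLH1 being highest (0.51). Over genes with a mean of at least 5 CPM, the share above 0 was 43.7% for LCP1 and 59.3% for PLS3.

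Genes of actin filament turnover were set beside the plastins, a list picked here after its values were seen and given with no test. Of these, 30 of 38 tested genes had r above 0 with PLS3 (median 0.34), highest for the actin gene ACTG1 (0.81), and 8 below, beside 50.6% above 0 over all tested genes. For PLS1 it was 28 of 38 (median 0.30), highest for the capping protein gene CAPZA2 (0.80), and 10 below, beside 49.4%. LCP1 had 14 of 38 above 0 (median -0.10), lowest for CFL1 (-0.74), and 24 below, beside 50.1%. Over genes with a mean of at least 5 CPM, the share above 0 was 59.3% for PLS3, 51.1% for PLS1 and 43.7% for LCP1.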
